A study of Homo sapiens with 8 samples.

Results

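The TMED genes encode the p24 family of membrane proteins of the early secretory pathway, and 9 of them (TMED1, TMED2, TMED3, TMED4, TMED5, TMED7, TMED8, TMED9 and TMED10) were followed through every library of the study. They were taken by gene symbol, 9 of the 57736 gene IDs in the count tables, and the family was singled out because TMED2 was among the mRNAs most enriched with the HuR antibody. That choice used the precipitate-over-input contrast, so all values of that contrast, and of differences in it between lines, are descriptions with no test. All cells were IMR90, a line of human fetal lung fibroblasts, and 8 libraries were made in 2 experiments. In the RNA-seq experiment there was 1 library of cells with knockdown of ADAR1 (ADAR1 KD), the enzyme that converts adenosine to inosine in double-stranded RNA, and 1 library of control cells (Ctrl). In the RNA immunoprecipitation experiment, shADAR1, shHuR and shControl cells each gave 1 precipitate made with an antibody against HuR and 1 input without antibody. HuR (gene ELAVL1) is an RNA-binding protein. Each group is 1 library here, so intervals below cover counting error only and say nothing of the spread between cultures. How the RNA-seq knockdown was made, and whether a line was 1 clone, are not given in the sources used here.

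The p24 proteins cycle between the endoplasmic reticulum and the Golgi apparatus. Their cytoplasmic tails bind the COPI and COPII vesicle coats, their GOLD domains face the lumen, and they act as cargo receptors, best known for the export of GPI-anchored proteins. They work as hetero-oligomers of subfamilies named α (TMED4 and TMED9 here), β (TMED2, its single vertebrate member), γ (TMED1, TMED3, TMED5 and TMED7) and δ (TMED10). TMED2 and TMED10 depend on each other for stability. TMED8 carries a GOLD domain but is not a membrane-spanning p24 protein. HuR binds U-rich and AU-rich stretches, mostly in 3' untranslated regions (3'UTRs) and introns, and is known for stabilising mRNAs that hold such stretches.

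The libraries held 28390935 to 50711218 counts. The targeted genes were lower where the labels name them: ADAR had 1445 counts in ADAR1 KD and 7732 in Ctrl (log2 ratio -2.81), and 3142 counts in the shADAR1 input and 12890 in the shControl input (-1.55). ELAVL1 had 674 counts in the shHuR input and 4806 in the shControl input (-2.72). In the shHuR precipitate ELAVL1 RNA itself had 742 counts, against 27765 in the shControl precipitate. Each of 8 fibroblast markers was detected in every library. Markers of other cell types were low but moved with the lines: 4 epithelial markers summed to 12.8, 12.2 and 29.3 CPM (counts scaled to library size) and 3 endothelial markers to 55.6, 26.8 and 13.6 CPM in the shADAR1, shHuR and shControl inputs. In the RNA-seq pair the same sums were 32.8 and 77.7 CPM in ADAR1 KD, against 28.1 and 52.6 CPM in Ctrl. In the inputs KRT8 and TEK gave most of these counts. In every library 1 of the 3 endothelial markers was at 0, and 2 to 3 of 4 leukocyte markers were. The leukocyte markers summed to at most 4.08 CPM, in the shADAR1 input, where CD14 had 152 counts against 1 in the shControl input. Their part in the TMED values was not tested. No precipitate with an unrelated antibody was analysed here, so recovery of an RNA with HuR and unspecific recovery cannot be told apart from these values alone.

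Because HuR recognises U-rich RNA, the most U-rich 30-base window of the annotated 3'UTR is shown for 6 members, 4 that were recovered in the precipitates and 2 that were not. Windows run 5' to 3' in DNA letters (T for U), and capitals mark matches to ATTTA or TTTNTTT, the AU-rich and U-rich patterns searched. They are a description of the annotated transcript and not mapped HuR sites.
TMED2: tttttattatttcttcttttcctTTTGTTT
TMED10: tttcttccTTTTTTTCTTTtaaaaatgttt
TMED4: tttttccTTTTTTTTTTTTTTTTTTTTTTT
TMED7: gcttttctgctgTTTTTTTTTTTTTTaatt
TMED9: ttctgtcttcctttgctaacttagggtttt
TMED3: gttctggctcttcTTTCTTTggggttctct
All 6 windows lie in 3'UTR exons of GENCODE 29 transcripts on GRCh38. TMED2's is at chr12:123597006-123597035 on the plus strand and holds 23 U, TMED10's at chr14:75133897-75133926 on the minus strand with 20 U, and TMED4's at chr7:44578863-44578892 on the minus strand with 28 U. TMED7's is at chr5:115614922-115614951 on the minus strand with 22 U. TMED9's, at chr5:177595761-177595790 on the plus strand, and TMED3's, at chr15:79322633-79322662 on the plus strand, hold 16 U each. Of the members not shown, TMED5 was not recovered, yet its window holds 20 U, as TMED10's does, and a TTTNTTT match. The windows of TMED8, which was recovered, and TMED1, which was not, hold 22 and 12 U. U in the window thus does not separate the recovered members from the rest. The deposited counts were made on hg19, so these positions describe the reference and were not read from the count tables.

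Over the whole 3'UTR the members split widely. TTTNTTT was matched 30 times in TMED8 (6750 bases), 23 times in TMED4 (1585 bases), 20 times in TMED2 (1848 bases), 19 times in TMED7 (2701 bases) and 15 times in TMED10 (3415 bases). TMED5 had 6 matches in 4928 bases, TMED3 had 1 match in 633 bases, and neither TMED1 (557 bases) nor TMED9 (708 bases) had any. ATTTA followed a different order, with 22 matches in TMED8, 17 in TMED5, 16 in TMED7, 5 each in TMED2 and TMED4, 4 in TMED10, 1 in TMED3 and 0 in TMED1 and TMED9. TMED7's 3'UTR was the most AU-rich of the family (69.2%) and TMED1's the least (40.9%), beside a median of 57.4% over 18240 coding genes. Matches were counted on the transcript strand, with overlapping matches included, and a base can belong to both patterns. Of those 18240 3'UTRs, each of 30 bases or more, 63.7% held TTTNTTT and 64.9% held ATTTA. Members with 15 or more TTTNTTT matches were TMED2, TMED4, TMED7, TMED8 and TMED10.

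Recovery with the HuR antibody divided the family. TMED2, TMED4, TMED7, TMED8 and TMED10 were at least 2-fold higher in the precipitate than in the input in all 3 lines, and TMED3 was at least 2-fold lower in all 3. TMED1 and TMED9 were at least 2-fold lower in shADAR1 and shControl cells but not in shHuR cells, and TMED5 lay within 2-fold everywhere. A call here is a ratio of at least 2-fold with 50 or more counts in 1 of the libraries. Calls higher and lower were 5 and 3 of 9 in shADAR1 cells, 5 and 1 in shHuR cells, and 5 and 3 in shControl cells. Over all genes tested, the shares called higher and lower were 30.0% and 37.5% in shADAR1, 25.5% and 25.4% in shHuR, and 30.7% and 38.4% in shControl. More genes were called than not in each line, and since the family was picked on this contrast nothing is read from its counts. At 1.5-fold TMED1, TMED3, TMED5 and TMED9 were lower in the shHuR precipitate, beside 39.6% of all genes. Several of these calls turn on the trend of the ratio over GC content and transcript length. With that trend removed TMED9 was within 2-fold in shADAR1 (-0.95) and shControl (-0.79), TMED5 was past it in all 3 lines (-1.12, -1.03 and -1.11 in shADAR1, shHuR and shControl), and TMED8 was within it in shControl (0.93). Values in all 3 lines also turn on scaling. Total counts moved the all-gene median by -0.85, -0.99 and -0.86 in shADAR1, shHuR and shControl cells. With total counts TMED5 was past 2-fold lower in shADAR1 cells (-1.28), and no member's call changed in shControl cells. In shHuR cells TMED1 (-1.89), TMED9 (-1.91) and TMED5 (-1.71) were then more than 2-fold lower, and TMED8 (0.99) and TMED10 (0.20) were within 2-fold. Levels below are CPM after TMM scaling (a scaling that trims the most extreme genes), and ratios of them are given as log2 with a 95% exact interval.

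**Figure D1:**
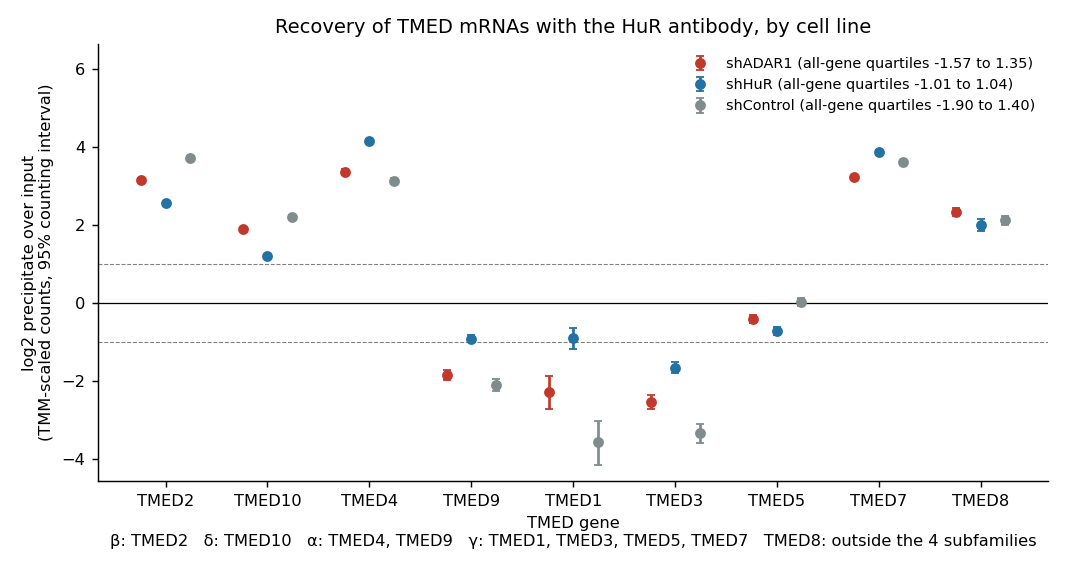
Log2 ratio of HuR precipitate over input for each TMED gene in shADAR1 (red), shHuR (blue) and shControl (grey) cells, 1 library pair per line, with bars for the 95% counting interval and dashed lines at 2-fold. TMED2, TMED10, TMED4, TMED7 and TMED8 lie above the upper dashed line in every line (up to 4.15), TMED3 lies below the lower one (-3.34 to -1.66), and TMED5 stays between them.

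TMED2, the β member and partner of other p24 proteins, had 2368 CPM in the shADAR1 precipitate and 265 CPM in its input, 1555 and 265 CPM in shHuR cells, and 3056 and 233 CPM in shControl cells. The input levels were close together while the precipitates were ordered shHuR, shADAR1, shControl from low to high. Its enrichment was 3.16 (3.13 to 3.19), 2.55 (2.52 to 2.58) and 3.71 (3.69 to 3.74) in shADAR1, shHuR and shControl cells. In shHuR cells this lay at the 89.7 percentile of all genes tested, and in shControl cells at the 99.1 percentile. TMED10, the δ member and TMED2's partner, had 497 CPM in the shADAR1 precipitate and 134 CPM in its input, 504 and 220 CPM in shHuR cells, and 385 and 83.1 CPM in shControl cells. Its enrichment had the same order of lines as TMED2's, at 1.89, 1.197 and 2.21 in shADAR1, shHuR and shControl cells. Unlike TMED2's, TMED10's precipitate was higher in shHuR than in shControl cells, with the larger difference in the input. TMED10's values depend on scaling. With total counts they were 1.03, 0.20 and 1.34 in shADAR1, shHuR and shControl cells, and the all-gene median of the shHuR enrichment moved by -0.99.

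Of the α members, TMED4 and TMED9 went opposite ways. TMED4 had 407 CPM in the shADAR1 precipitate and 39.9 CPM in its input, 1408 and 79.6 CPM in shHuR cells, and 251 and 28.8 CPM in shControl cells. The shHuR precipitate was by far the highest, and TMED4's enrichment was 3.35 (3.27 to 3.43), 4.15 (4.10 to 4.19) and 3.13 (3.05 to 3.21) in shADAR1, shHuR and shControl cells. TMED9, whose 3'UTR had no match to either pattern, had 19.9 CPM in the shADAR1 precipitate and 71.2 CPM in its input, 64.1 and 121 CPM in shHuR cells, and 14.7 and 63.1 CPM in shControl cells. Every TMED9 precipitate was below its input, with ratios of -1.84, -0.92 and -2.10 in shADAR1, shHuR and shControl cells.

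The γ members covered the whole range. TMED7, which in human cells has been linked to the traffic of the receptor TLR4, had 1491 CPM in the shADAR1 precipitate and 161 CPM in its input, 2596 and 177 CPM in shHuR cells, and 1107 and 91.0 CPM in shControl cells. Its enrichment was 3.21, 3.87 and 3.61 in shADAR1, shHuR and shControl cells, so the shHuR line had the highest value for TMED7 as for TMED4. With the GC and length trend removed it was 2.10, 3.22 and 2.12 in the same lines. TMED7 shares 24.01% of its annotated exon length with the readthrough gene TMED7-TICAM2, and estimated counts could be split between them in either direction. TMED7-TICAM2 had 291, 44 and 609 counts in the shADAR1, shHuR and shControl precipitates, small beside TMED7's 48007, 52525 and 33421. TMED5 had 34.9 CPM in the shADAR1 precipitate and 46.5 CPM in its input, 46.4 and 75.9 CPM in shHuR cells, and 44.8 and 44.3 CPM in shControl cells. TMED5's ratios were -0.41, -0.71 and 0.02 (-0.08 to 0.11) in shADAR1, shHuR and shControl cells. Its 3'UTR, with 17 ATTTA matches and 6 TTTNTTT matches, is the long one of the family without recovery. With total counts its ratios were -1.28, -1.71 and -0.86.

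TMED3 had 9.32 CPM in the shADAR1 precipitate and 54.4 CPM in its input, 23.0 and 72.6 CPM in shHuR cells, and 5.00 and 50.5 CPM in shControl cells. All 3 precipitates were below all 3 inputs, with ratios of -2.55, -1.66 and -3.34 in shADAR1, shHuR and shControl cells. TMED1 had 58 counts in the shADAR1 precipitate and 326 in its input, 143 and 638 in shHuR cells, and 29 and 592 in shControl cells. TMED1's ratios were -2.28 (-2.71 to -1.87), -0.90 (-1.18 to -0.64) and -3.56 (-4.15 to -3.02) in shADAR1, shHuR and shControl cells. TMED1's values are uncertain, because 51.3% of its exon length overlaps DNM2 on the other strand and no strand setting of the counting is known. TMED8, the GOLD-domain protein outside the subfamilies, had 116 CPM in the shADAR1 precipitate and 23.2 CPM in its input, 49.9 and 12.5 CPM in shHuR cells, and 73.0 and 16.8 CPM in shControl cells. TMED8 was recovered to a like degree in each line, at 2.33 (2.22 to 2.43), 1.99 (1.85 to 2.14) and 2.12 (2.00 to 2.23) in shADAR1, shHuR and shControl cells. With total counts its values were 1.46, 0.99 and 1.24 in the same lines.

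Across all genes, enrichment was higher where the annotated 3'UTR held more U-rich matches. The median log2 enrichment of genes with 0, 1 to 5, 6 to 14 and 15 or more TTTNTTT matches was -1.78, -0.93, 0.62 and 1.93 in shADAR1 cells and -0.94, -0.67, 0.17 and 1.70 in shHuR cells. In shControl cells it was -2.29 for 3385 genes without a match, -0.82 for 4013 genes with 1 to 5, 0.91 for 2183 genes with 6 to 14 and 2.03 for 2103 genes with 15 or more. TMED2 (3.71), TMED7 (3.61) and TMED4 (3.13) stood above the upper quartile of the genes with 15 or more matches in shControl cells (2.77), and TMED8 (2.12) and TMED10 (2.21) were near their median. TMED5 (0.02) was at the lower quartile of the genes with 6 to 14 matches (0.06), TMED3 (-3.34) was below the lower quartile of those with 1 to 5 (-1.77), and TMED1 (-3.56) below that of those without a match (-2.93). Across genes, Spearman's rho between the number of matches and enrichment was 0.69 over 11509 genes in shADAR1, 0.58 over 11433 in shHuR and 0.72 over 11684 in shControl. Within the family the 5 members with 15 or more matches were the 5 enriched ones. That edge is TMED10's own number of matches, and the family was picked on this contrast, so nothing is read from the split. The order was not strict: TMED3, with 1 match, lay below TMED9, with none, in each line. TMED8, with the most matches, was the least enriched of the 5 in shControl cells. All genes share these libraries, and the number of matches also grows with 3'UTR length, whose own rho was 0.52, 0.46 and 0.52 in the same lines.

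**Figure D2:**
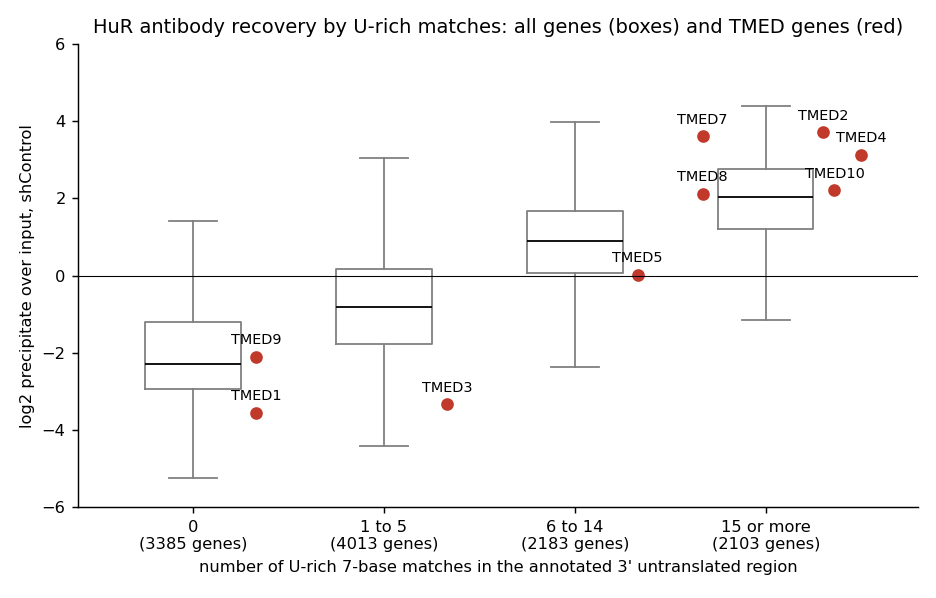
Log2 precipitate over input in shControl cells for all genes with an annotated 3'UTR, grouped by the number of U-rich 7-base matches, as boxes of the median and quartiles with whiskers to 1.5 interquartile ranges, and the 9 TMED genes as red points beside their box. The box medians climb from -2.29 to 2.03, TMED1 and TMED9 sit with the genes without a match, and TMED2, TMED4, TMED7, TMED8 and TMED10 sit with the genes of 15 or more.

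Annotated 3'UTRs need not be the forms these cells made. The length implied by the deposited counts and FPKM was 1618 bases in ADAR1 KD and 1316 in Ctrl for TMED2, whose annotated transcript has 2560 bases. For TMED10 it was 1317 bases in ADAR1 KD and 1570 in Ctrl, against 4127 annotated, and for TMED5 1960 and 2163 against 6104. For TMED4 it was 1397 bases in ADAR1 KD and 1462 in Ctrl, against 2322 annotated. TMED7 (3542 and 3504 of 3757) and TMED8 (7575 and 7533 of 7784) were close to their annotated length. Short transcripts fell below theirs by a like number of bases. In Ctrl TMED1 was at 1092 of 1340, TMED3 at 1218 of 1475 and TMED9 at 1213 of 1473. A gap of that size is thus common to the family and is not read as a shorter transcript. The gaps of TMED2, TMED4, TMED5 and TMED10 were larger. The TMED2 difference between ADAR1 KD and Ctrl, 0.30 in log2, was at the 94.5 percentile of 12194 genes, and that of TMED10 (-0.25) at the 9.53 percentile. These lengths are averages over the forms counted, and how much of each annotated 3'UTR was present was not measured.

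Between lines, enrichment in shHuR minus shControl cells showed the larger shifts. TMED2 (-1.16, -1.20 to -1.12) and TMED10 (-1.02, -1.08 to -0.95) were less enriched in shHuR than in shControl cells by more than 2-fold, TMED5 was at -0.73, and TMED8 at -0.12 (-0.31 to 0.06). TMED10's lower value went with a higher input in shHuR cells and not with a lower precipitate. TMED4 (1.02) and TMED7 (0.27) were more enriched in shHuR cells. TMED1, TMED3 and TMED9, all lower in the shControl precipitate than in its input, also had higher values in shHuR cells. The differences were 2.66 (2.06 to 3.25) for TMED1, 1.68 (1.40 to 1.95) for TMED3 and 1.19 (1.02 to 1.35) for TMED9. That made 4 of 9 higher and 2 of 9 lower, where 28.3% and 12.9% of 12468 genes were higher and lower. The median was 0.27 over the 9 members and 0.25 over all genes. Low values were less low in shHuR cells over all genes too, with a lower quartile of enrichment of -1.01 in shHuR and -1.90 in shControl cells. Among all genes the differences of TMED1, TMED3 and TMED9 lay at the 97.7, 87.2 and 76.7 percentiles. TMED4 was no longer past 2-fold with RLE scaling (0.91) or total counts (0.90). With the trend over GC content and transcript length removed, TMED2 (-0.57) and TMED10 (-0.44) were within 2-fold, as were TMED3 (0.79) and TMED9 (0.44), while TMED4 was at 1.09, TMED7 at 1.10 and TMED1 at 1.42, and TMED5 (0.088) and TMED8 (0.23) turned positive.

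In shADAR1 minus shControl cells the differences were smaller. TMED2 was at -0.56 (-0.60 to -0.51), TMED5 at -0.43, TMED7 at -0.39 and TMED10 at -0.32, while TMED3 (0.79), TMED9 (0.26), TMED4 (0.22) and TMED8 (0.21) were higher. TMED1 (1.28, 0.61 to 1.95) was the 1 member past 2-fold, and it rested on 58 and 29 counts in the shADAR1 and shControl precipitates. With the GC and length trend removed TMED1 was at 0.58, TMED2 at -0.18 and TMED3 at 0.27, TMED5 (-0.0044) and TMED7 (-0.024) were close to 0, and TMED9 (-0.16) and TMED10 (0.054) had the opposite sign. Of 12641 genes, 8.38% were higher and 2.87% lower by this measure. At 1.5-fold TMED3 was higher as well, beside 19.7% of genes. Both sets of differences share the shControl libraries.

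The make-up of the family's RNA followed from these ratios. TMED2 made up 47.9% of all TMED counts in the shADAR1 precipitate and 32.99% in its input, 24.9% and 25.6% in shHuR cells, and 61.9% and 37.4% in shControl cells. In shHuR cells TMED2 held about the same share of the precipitate as of the input. TMED7 instead was the leading member of the shHuR precipitate with 41.5%, against 17.1% in its input, and TMED4 held 22.5% against 7.68%. The 9 genes together made up 0.357%, 0.433% and 0.383% of the shADAR1, shHuR and shControl precipitates, against 0.106%, 0.143% and 0.0884% of the inputs. These are shares of counts, so a longer mRNA weighs more in them.

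**Figure D3:**
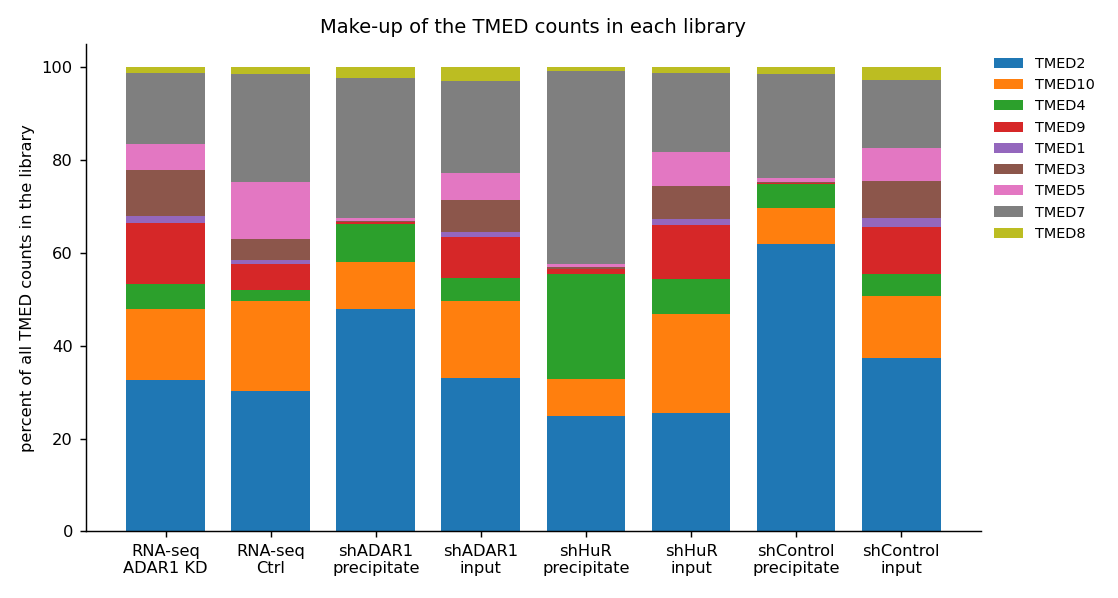
Share of each TMED gene in the summed TMED counts of each of the 8 libraries, in percent, 1 bar per library. In the shHuR precipitate TMED7 takes 41.5%, TMED2 24.9% and TMED4 22.5%, while in the shControl precipitate TMED2 takes 61.9%.

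Scaled by the mean implied length of the RNA-seq pair, TMED2 had the highest level of the family in each of the 5 libraries made without antibody. In CPM per kilobase it was at 376 in ADAR1 KD and 287 in Ctrl, and at 181, 181 and 159 in the shADAR1, shHuR and shControl inputs. TMED10 ranged from 57.6 to 187 CPM per kilobase, TMED9 from 51.1 to 179 and TMED3 from 40.6 to 134. Next came TMED7 at 25.8 to 91.7, TMED5 at 21.5 to 82.4 and TMED4 at 20.1 to 64.6 CPM per kilobase. The ranges of these 6 middle members overlap over the 5 libraries. Within each library TMED10 was the second highest, and the other 5 had no fixed order. Ranks below TMED2 rest on the implied lengths. TMED10's was 1317 bases in ADAR1 KD and 1570 in Ctrl, against 4127 annotated. TMED1 (7.93 to 23.0) was lower than these 6 in each library, and TMED8 (1.66 to 3.06) was the lowest in each. In the precipitates TMED2 reached 1614, 1060 and 2083 CPM per kilobase in shADAR1, shHuR and shControl cells, and TMED4 reached 985 in shHuR cells.

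**Figure D4:**
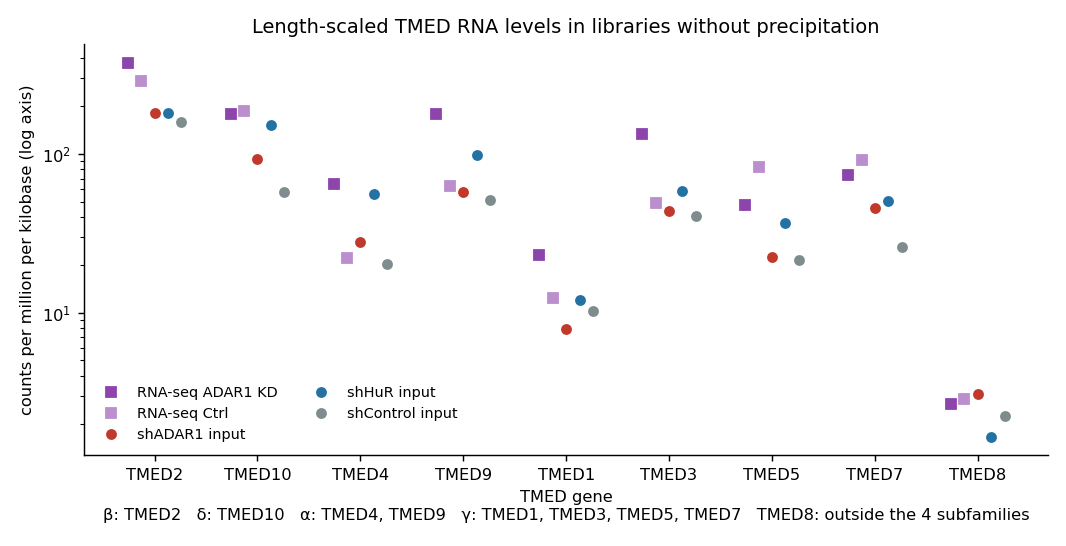
Length-scaled level of each TMED gene (CPM per kilobase, log axis) in RNA-seq ADAR1 KD and Ctrl (squares) and in the shADAR1, shHuR and shControl inputs (circles), 1 library each. TMED2 is highest in every library (159 to 376) and TMED8 lowest (1.66 to 3.06), with the other 7 between.

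After knockdown of ADAR1, the RNA-seq pair and the precipitation inputs gave different pictures. In the RNA-seq pair TMED4 and TMED9 of the α subfamily and TMED3 of the γ subfamily were more than 2-fold higher in ADAR1 KD, and the log2 ratio was 0.90 for TMED1, 0.39 for TMED2 and -0.80 for TMED5. In the inputs no member differed by 2-fold, and TMED7 (0.82) and TMED10 (0.69) were the furthest apart. Fewer cells with an RNA and less of that RNA per cell cannot be told apart in these bulk libraries.

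In single values, TMED4 had 92.4 CPM in ADAR1 KD and 31.5 CPM in Ctrl, a log2 ratio of 1.55 (1.46 to 1.64). TMED9 had 221 CPM in ADAR1 KD and 77.9 CPM in Ctrl (1.503, 1.45 to 1.56). TMED3 had 167 CPM in ADAR1 KD and 61.5 CPM in Ctrl (1.44, 1.37 to 1.51). These lay at the 96.2, 95.9 and 95.6 percentiles of 13235 genes. TMED5, a γ member with a long 3'UTR, had 97.6 CPM in ADAR1 KD and 169.8 CPM in Ctrl (-0.80, -0.85 to -0.75). TMED2 had 551 CPM in ADAR1 KD and 421 CPM in Ctrl, and its ratio of 0.39 (0.36 to 0.42) became 0.11 in the deposited FPKM, which divide by the implied length given above. TMED10 (-0.06), TMED7 (-0.32) and TMED8 (-0.11) were close to equal or lower in ADAR1 KD, but all 3 turned positive (0.23, 0.29 and 0.31) once the GC and length trend was removed, and TMED10 was 0.21 in the deposited FPKM. With 3 of 9 members higher and 0 lower, the family stood beside 8.31% of genes higher and 7.71% lower, and its median was 0.39 against -0.01 for all genes. At 1.5-fold TMED5 was lower, beside 19.3% of genes.

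In the shADAR1 input TMED4 had 39.9 CPM, against 28.8 CPM in the shControl input, a log2 ratio of 0.47 (0.37 to 0.58). TMED9 (71.2 and 63.1 CPM, ratio 0.17) and TMED3 (54.4 and 50.5 CPM, ratio 0.11) were nearly level between the shADAR1 and shControl inputs, but with the GC and length trend removed they were at 0.46 and 0.44, close to TMED4 (0.47). TMED7 had 161 CPM in the shADAR1 input and 91.0 CPM in the shControl input (0.82, 0.77 to 0.88), and TMED10 had 134 and 83.1 CPM (0.69, 0.63 to 0.75). TMED8 was at 0.46, TMED2 at 0.19, TMED5 at 0.07 (-0.02 to 0.16) and TMED1 at -0.37. No member was called, beside 9.14% of 13192 genes called higher and 10.3% lower. At 1.5-fold TMED7 and TMED10 were higher, beside 18.9% of genes. The 3 members past 2-fold in the RNA-seq pair were thus all within it here, at 0.11 to 0.47, and also with that trend removed, when they were at 1.22 to 1.46 in the RNA-seq pair.

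The 1 test the design allows set ADAR1 KD and the shADAR1 input together against Ctrl and the shControl input, with the experiment as a block. By edgeR's quasi-likelihood test with Benjamini-Hochberg adjustment over 15994 genes, 13 genes (0.0813%) rose and 2 (0.0125%) fell, none of them a TMED gene, and no TMED gene had an unadjusted p under 0.05. TMED4 came closest, with an edgeR log2 fold change of 1.01 (SE 0.46) and adjusted p = 0.9998. Like TMED2, TMED3 and TMED9, TMED4 was higher in the knockdown library in 2 of 2 experiments. Its adjusted p was 0.865 or more in each alternative edgeR or DESeq2 fit. Its unadjusted p alone of the 9 came under 0.05 with RLE scaling, with no filter on low counts and in DESeq2. TMED9 was at 0.83 (SE 0.49) and TMED3 at 0.77 (SE 0.48), and their adjusted p in edgeR was the same. TMED5 was at -0.37 (SE 0.44), and the other 5 members lay between 0.17 and 0.31. With 1 residual degree of freedom the test rests largely on the spread shared across genes.

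After knockdown of HuR, read from the inputs, 8 of 9 members were above 0. The share of all genes above 0 was not counted, and their median was -0.02. TMED4 had 79.6 CPM in the shHuR input and 28.8 CPM in the shControl input (1.47, 1.38 to 1.55), and TMED10 had 220 and 83.1 CPM (1.40, 1.35 to 1.46). TMED7 (177 and 91.0 CPM, ratio 0.96) and TMED9 (121 and 63.1 CPM, ratio 0.94) were just inside 2-fold. TMED5 was at 0.78, TMED3 at 0.52 and TMED1 at 0.22. With the GC and length trend removed TMED9 was past 2-fold (1.25), which made 3 members higher, beside 1754 of 12995 genes. TMED3 was then at 0.91 and TMED1 at 0.73. TMED2, the member most enriched with the antibody in shControl cells, had 265 CPM in the shHuR input and 233 CPM in the shControl input (0.19, 0.15 to 0.22). TMED8, also enriched, was the only member lower, with 12.5 CPM in the shHuR input and 16.8 CPM in the shControl input (-0.43, -0.58 to -0.28). Of the 9 members 2 were called higher and 0 lower, against 12.2% and 15.6% of 13390 genes, and the median was 0.78 for the family and -0.02 for all genes. At 1.5-fold 5 members were higher (TMED4, TMED5, TMED7, TMED9 and TMED10), beside 23.3% of genes. The shADAR1 and shHuR ratios share the shControl input.

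**Figure D5:**
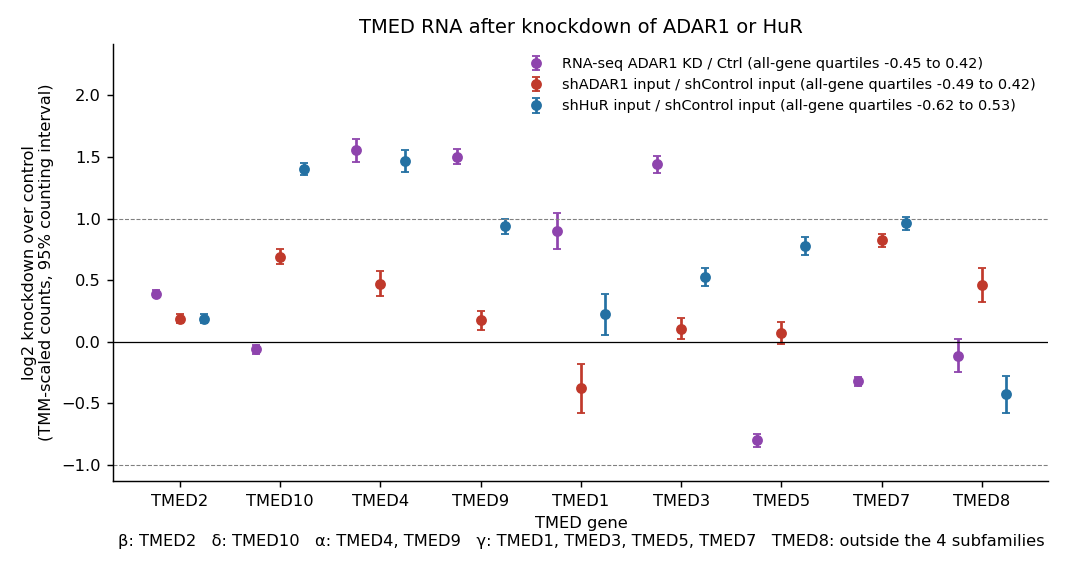
Log2 ratio of knockdown over control for each TMED gene in the RNA-seq pair (purple), the shADAR1 input (red) and the shHuR input (blue), with 95% counting intervals and dashed lines at 2-fold. TMED4, TMED9 and TMED3 are above 2-fold in the RNA-seq pair (1.44 to 1.55) and at 0.11 to 0.47 in the shADAR1 input, while TMED4 and TMED10 are above 2-fold in the shHuR input.

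The rest of the early secretory pathway was read from 4 lists, set beside the all-gene shares given above. In the RNA-seq pair 0 of 17 genes of the COPI coat and its ARF switches were called, and 2 of 13 genes of the COPII coat were lower, SEC24C (-1.12) and SEC24A (-1.02), both of which bind cargo in the coat. Of 15 other cargo receptors LMAN1 (-1.13), the mannose lectin ERGIC-53, was lower, and of 13 Golgi tethers and SNAREs none was called, where 8.31% of all genes were higher and 7.71% lower. In the shADAR1 input the single call was MCFD2 (1.13), LMAN1's partner in carrying coagulation factors, where 9.14% of all genes were higher and 10.3% lower, and no gene of the 4 lists passed the edgeR test. In the shHuR input the calls were all higher, ARF4 (1.21) and COPB2 (1.06) for COPI, SAR1B (1.68) and SEC23B (1.23) for COPII, and MCFD2 (1.75) and CNIH4 (1.32) among cargo receptors, that is 2 of 17, 2 of 13 and 2 of 15 genes, where 12.2% of all genes were higher and 15.6% lower. List medians in the shHuR input were 0.33 for COPI, 0.70 for COPII, 0.70 for cargo receptors and 0.30 for the tethers and SNAREs, against -0.02 for all genes. All 13 COPII genes were above 0 there, the lowest at 0.01. The lowest values of the COPI, cargo receptor and tether lists were -0.34, -0.15 and -0.54.

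Recovery with the HuR antibody went both ways in these lists, as it did over all genes, of which 30.7% were higher and 38.4% lower in shControl cells. There 6 of 17 COPI genes were higher and 7 lower in the precipitate, with ARCN1, the δ coat subunit, at 3.08 and COPE, the ε subunit, at -3.90. For COPII 4 of 13 were higher and 6 lower, and the GTPases SAR1A (3.74) and SAR1B (3.42) were close to TMED2 (3.71) and TMED7 (3.61), while PREB, the SAR1 exchange factor, was at -3.25. Among cargo receptors 4 of 15 were higher and 4 lower, with KDELR2, a receptor that returns escaped proteins to the endoplasmic reticulum, at 2.74 and ERGIC3 at -3.39. Of 13 tethers and SNAREs 3 were higher and 7 lower, with ACBD3 at 2.96 and the SNARE STX5 at -3.08. SAR1A (4.28) and SAR1B (3.99) had their highest enrichment in shHuR cells, as TMED4 and TMED7 did. In enrichment of shHuR minus shControl cells, calls higher and lower were 5 and 3 for COPI, 3 and 4 for COPII, 2 and 5 for cargo receptors and 2 and 2 for tethers and SNAREs, beside 28.3% and 12.9% of all genes. COPE (2.42), PREB (2.07), ERGIC3 (1.77) and STX5 (1.66) were higher, and ARF4 (-2.05), SEC23A (-2.51), KDELR3 (-1.83) and BET1 (-2.15) were lower.

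Over the 8 libraries the genes whose log2 CPM ran most like TMED2's, among 9492 genes with 50 or more counts in each, were YWHAZ (Pearson r 0.997), ZNF772 (0.992), CARD8 (0.992), SNRNP40 (0.990) and SLC25A32 (0.989). Within the family TMED8 (0.931), TMED7 (0.915), TMED10 (0.867) and TMED4 (0.818) came next, at ranks 426, 580, 1097 and 1498. TMED5 (-0.55), TMED9 (-0.81) and TMED3 (-0.90) ran against TMED2, and TMED1 was below the count minimum in the shControl precipitate. The 8 points are 3 precipitates and 5 libraries without antibody, the same for every gene, and the coefficients are descriptions.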

How the data were processed

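RNA-seq libraries and HuR precipitation libraries were prepared with the KAPA RNA HyperPrep kit, and precipitates with the Magna RIP kit, per the labels' protocols. The deposited expected counts per gene were made by the authors with RSEM 1.2.3 on hg19 (GRCh37 is also named for the precipitation), per the submitters' processing notes, and hold whole numbers, so they were used as deposited. The RNA-seq table also holds FPKM deposited by the authors (fragments adjusted for transcript length and depth), used as an alternative and for implied transcript lengths. Aligner, annotation release and strand setting are not given in the sources used here. DESeq2 is named in the submitters' processing notes.

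Groups came from sample titles and columns from headers. The members, the 4 pathway lists and the comparisons were chosen with earlier results of these data known. Named genes were all members, up to 3 called genes with the largest ratio per list and comparison, the 2 targets, and the 5 genes most like TMED2. TMM factors (edgeR 4.0.16, R 4.3.3) were computed within each experiment's table. Ratios of 2 libraries carry exact conditional binomial 95% intervals; calls used a prior count of 2, at least 2-fold and 50 counts. Differences in enrichment carry an interval from their 4 counts. ADAR1 knockdown over 4 libraries was tested with edgeR's quasi-likelihood test, experiment as block, at an adjusted p of 0.05, after a filter on low counts (15994 of 57736 genes kept). Its code was also run on simulated counts that held no difference between the experiments, and nothing about these data is read from that. Alternatives were RLE and total-count scaling, a prior count of 0.5, a 1.5-fold threshold, removal of a trend over GC content and length (values for at least 96.3% of genes), the FPKM with a pseudocount of 0.1, no filter, no block, DESeq2 1.42.0, and each experiment alone. 3'UTRs are those of 1 representative GENCODE 29 transcript per gene on GRCh38. PCR reads are not independent molecules, so intervals cover counting error only. The p-values rest on how far the 2 experiments differ and largely on the spread shared across genes, because each group is 1 library. SEC22B and PECAM1 were not analysed here.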

Additional observations from a re-analysis of the deposited data

Results flagged for a closer look

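After knockdown of ADAR1, 3 members had log2 ratios of opposite sign in the 2 experiments with both counting intervals clear of 0, and the difference was not tested, because each experiment gave 1 pair of libraries. TMED1 had a log2 ratio of 0.90 in the RNA-seq pair and -0.37 in the shADAR1 input over the shControl input. TMED7 was at -0.32 in the RNA-seq pair and 0.82 in the inputs. TMED10 was at -0.062 in the RNA-seq pair and 0.69 in the inputs. With the GC and length trend removed TMED1 was at 0.61 and 0.08, TMED7 at 0.29 and 0.53, and TMED10 at 0.23 and 0.60, so each had the same sign in both. TMED5 (-0.80 and 0.070) and TMED8 (-0.11 and 0.46) also differed in sign, with 1 interval each that spans 0.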

How the results depend on the processing

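Counts of calls moved by more than 1.5 times under these alternatives. In the test of ADAR1 knockdown over both experiments, 15 genes passed, against 174 with no filter on low counts, 116 with DESeq2 and 0 without the replicate block (edgeR, with 85 genes at an unadjusted p under 0.05), while RLE gave 15. No fit called a TMED gene. At a 1.5-fold threshold 1 member was lower in the RNA-seq pair, 2 were higher in the shADAR1 input and 5 in the shHuR input, 4 were lower in the shHuR precipitate, and 2 were more enriched in shADAR1 than in shControl. With total counts 3 members were higher and 4 lower in the shHuR precipitate, beside 1960 higher and 7403 lower of 13061 genes. With the GC and length trend removed 2 were lower there, beside 2861 of 12594 genes. Under the same setting 0 were more enriched in shADAR1 than in shControl, beside 252 of 12242 genes. Less enriched in shHuR than in shControl were 0, beside 1166 of 12109 genes. Each experiment alone, left without a test, gave TMED1 0.90 and -0.37, TMED5 -0.80 and 0.070, TMED7 -0.32 and 0.82, TMED8 -0.11 and 0.46, and TMED10 -0.062 and 0.69 in the RNA-seq pair and the inputs. Of 54 ratios of 2 libraries, RLE scaling moved 13, total counts 35, removal of the GC and length trend 50 and a prior count of 0.5 none beyond their counting intervals. Of 18 differences in enrichment the first 3 moved 4, 4 and 15. No called value changed sign under these. The cause was not tested in any of these. TMED1 in the precipitates, at 29 to 143 counts, is limited by depth, and 1 library per group limits all the rest.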
